A study of Mus musculus with 11 samples.

Results

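Interferon-stimulated genes are genes that cells switch on when an interferon binds its receptor. The 45 genes described here are listed by gene symbol: transcription factors and signal relay proteins of the interferon response, sensors of foreign nucleic acid, and proteins that hinder viruses. They are 45 of the 47643 gene symbols in the table. All 45 passed the filter for testing, 2 or more libraries at an RPKM of 1 or above, which 11979 genes passed. The list was written with the RPKM values and earlier group comparisons of these libraries known, so the shared direction of its members is a description and not independent evidence.

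Type I interferons (interferon alpha and beta) bind the receptor made of IFNAR1 and IFNAR2, and the kinases JAK1 and TYK2 then activate STAT2. Together with IRF9 it belongs to a complex that binds the interferon-stimulated response element in the promoters of target genes. Interferon gamma has its own receptor, IFNGR1 and IFNGR2, and many guanylate-binding proteins and immunity-related GTPases are known for their strong response to it. Fibroblasts both make interferon beta and answer to it.

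The libraries hold poly-A RNA of fibroblasts that were sorted from mouse skin as CD45- and CD140a+ cells. Normal back skin (NS) and 5-day excisional wounds (5dw) were taken from wild-type (WT) mice and from Act mice, which carry INHBA, the gene for a subunit of activin, under the keratin 14 promoter, so that keratinocytes and not fibroblasts express the transgene. The mice were 9 to 12 weeks old, of a mixed CD-1 and C57BL/6 background, and RNA of 3 mice was pooled for each library. Each group had 3 libraries, except Act 5dw with 2, numbered 1 and 3. The p-values measure the spread between these pools. A fit without 1 of the Act 5dw libraries leaves a single pool in that group and takes the spread from the other groups. A call lost in such a fit therefore does not show that the difference is smaller. RPKM, reads divided by gene length and by sequencing depth, allows levels to be compared between genes. It did not put the libraries on a common scale: the median-ratio size factors were 0.83 to 0.86 in 5dw and 0.98 to 1.25 in NS. Differences between NS and 5dw as deposited therefore depend on the scaling. The log2 fold change (log2FC) is the difference between group means of log2(RPKM + 0.5), a gene is called higher or lower at a limma adjusted p under 0.05 over all 11979 genes, and "scaled" refers to the same fit after median-ratio scaling of the libraries.

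The libraries held 18649328 to 39702138 mapped reads, the 3 WT 5dw libraries being the deepest at 38740404 or more. Fibroblast markers were abundant in every library, with a summed RPKM of 13236 to 27188 over 10 genes. The 8 pan-immune markers, Ptprc (CD45) among them, were each under 1 in every library and summed to at most 1.35. The 10 keratinocyte markers summed to 900 to 3424 in NS and to 101 to 874 in 5dw. The neutrophil list summed to 0.329 to 1.10 in NS and 2.96 to 21.5 in 5dw, the endothelial list to 5.91 to 10.8 and 16.1 to 18.3, and the macrophage and dendritic cell list to 10.7 to 19.5 and 11 to 15.9. The T cell list went from 3.92 to 35.6 in NS to 58.8 to 107 in 5dw through Cd3e, while Cd3d and Cd3g reached at most 0.643 and 0.592. The part of these transcripts in the values below was not tested. In bulk RNA, fewer cells of a type and less RNA per cell cannot be told apart. The library numbered 2 was the highest of its group for 33 of the 45 genes in WT NS, 41 in Act NS and 40 in WT 5dw, against 28%, 36.2% and 32.5% of all tested genes. Act 5dw has no library of that number. WT 5dw replicate 1 was the lowest of its group for 45 of 45.

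For 35 of the 45 genes a promoter, 250 bases before to 50 bases after a transcription start, was found in the RefSeq table for GRCm38.p6. It was searched for the core of the interferon-stimulated response element, written GAAANNGAAA or, on the other strand, TTTCNNTTTC, where overlapping matches count separately. A match was found in 18 of the 35 genes (51.4%) and in 1079 of all 27025 gene symbols with a promoter (3.99%). The following stretches are from the most abundant of the genes with a match before the start, to show how the motif lies in these promoters. They are written 5′ to 3′ along the gene, with the matched bases in capitals.
Gbp2 (chr3:142620594-142620623, plus strand): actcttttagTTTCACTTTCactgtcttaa
Bst2 (chr8:71537565-71537624, minus strand): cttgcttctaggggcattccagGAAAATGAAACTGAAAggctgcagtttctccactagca
Isg15 (chr4:156200856-156200915, minus strand): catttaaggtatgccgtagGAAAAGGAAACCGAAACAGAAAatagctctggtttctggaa
Ifit3 (chr19:34583365-34583424, plus strand): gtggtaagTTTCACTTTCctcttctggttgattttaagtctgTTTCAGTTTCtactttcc
Ifit1 (chr19:34640769-34640828, plus strand): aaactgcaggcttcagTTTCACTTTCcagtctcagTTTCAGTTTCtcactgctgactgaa
Irgm1 (chr11:48871428-48871457, minus strand): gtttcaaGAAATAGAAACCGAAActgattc
Stat2 (chr10:128270251-128270310, plus strand): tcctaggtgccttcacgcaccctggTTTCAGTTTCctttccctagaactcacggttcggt
Trim30a (chr7:104465195-104465254, minus strand): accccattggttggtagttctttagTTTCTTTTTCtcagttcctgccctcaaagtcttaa
Isg15 held 3 overlapping matches in a row, and Bst2 and Irgm1 held 2 each. Ifit1 and Ifit3 held 2 separate ones. The stretches of Gbp2 and Irgm1 are cut to 30 bases because GENCODE M21 places an exon of the same gene there. Ifitm3, the most abundant of all 45, had its matches past the start, as did Ddx58, Ifih1 and Eif2ak2. A match is a string of letters and not evidence of binding. The median log2FC of the 18 genes with a match and of the 17 without one was -1.14 and -1.06 for wounding in Act, 0.0088 and -0.18 for wounding in WT, -0.80 and -0.63 between Act 5dw and WT 5dw, 0.40 and 0.17 between Act NS and WT NS, and -1.20 and -0.85 for the interaction, given as a description with no test.

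The 45 genes covered a wide range of levels. Ifitm3 stood at 276 to 669 RPKM, and it was 1 of 6 genes that reached 100 in any library, with Gbp2, Iigp1, Irf1, Bst2 and Lgals3bp. A further 23 genes had their highest value between 10 and 100, and 16 stayed under 10. Ifi44 had the lowest mean over all libraries, 0.92, at a range of 0.318 to 2.76. Mx1 and Oas3 reached lower single values, 0.240 and 0.179. The colour map of all 45 genes shows 2 patterns, a drop across most rows in the 2 Act 5dw libraries and a mixed picture in WT 5dw.

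**Figure D1:**
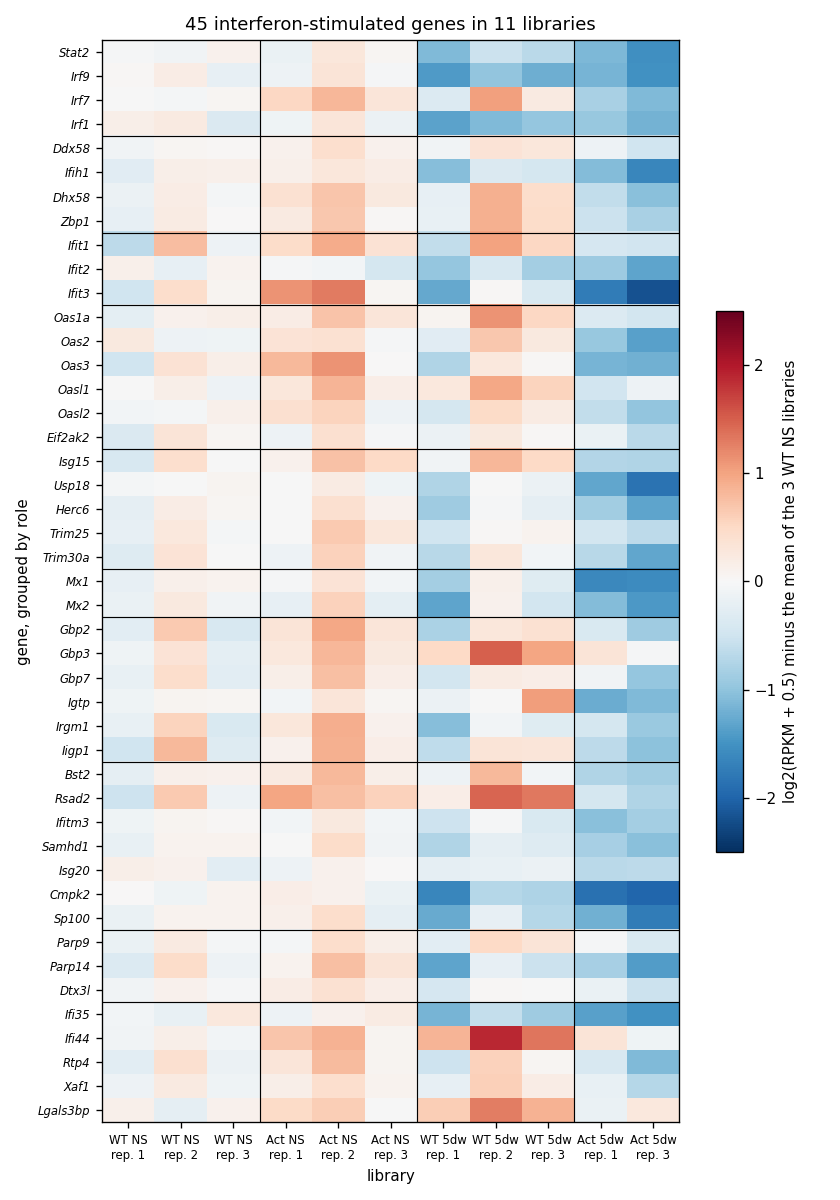
Colour map of the 45 genes (rows, grouped by role and separated by lines) in the 11 libraries (columns). Colour is log2(RPKM + 0.5) minus the mean of the 3 WT NS libraries, red for higher and blue for lower. Most rows are blue in the 2 Act 5dw libraries, and in WT 5dw the rows are red, blue or near white.

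In Act mice, wounding went with lower levels of nearly the whole list. Between Act 5dw and Act NS, 39 of the 45 genes were called lower and 0 higher, where 36.5% of all tested genes were called lower. The median log2FC of the 45 was -1.14, against -0.31 for all tested genes, and each of the 45 values was below 0. For 41 genes both Act 5dw libraries lay below all 3 Act NS libraries, which held for 49.8% of all tested genes. The 6 genes that were not called were Eif2ak2, Gbp3, Ifi44, Ifit1, Lgals3bp and Parp9. After scaling, 22 of the 45 were called lower, with a background of 20.4%, and 0 higher, and the median was -0.78, against 0.01 for all tested genes. The 17 calls lost were those of Ddx58, Zbp1, Oas1a, Oasl1, Oasl2, Trim25, Trim30a, Mx2, Gbp2, Gbp7, Irgm1, Iigp1, Rsad2, Isg20, Dtx3l, Rtp4 and Xaf1. With the libraries numbered 2 left out of every group, 33 genes were called lower as deposited (background 28.5%) and 18 after scaling (background 16.1%). Without Act 5dw replicate 3, which was the lower of its pair for 39 genes, 21 were called lower (background 23.7%). With the replicate number as a block, 40 were (background 38%), Ifit1 being added. Under every alternative tried, 17 of the 39 calls held: Bst2, Cmpk2, Dhx58, Herc6, Ifi35, Ifih1, Ifit3, Ifitm3, Irf7, Irf9, Isg15, Mx1, Oas2, Oas3, Sp100, Stat2 and Usp18.

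In WT mice the list divided. Between WT 5dw and WT NS, 5 genes were called higher (background 9.45%) and 8 lower (background 48.8%), with a median log2FC of -0.04 against -0.40 for all tested genes. The genes called higher were Ifi44, Gbp3, Rsad2, Lgals3bp and Oasl1, and those called lower were Irf9, Irf1, Cmpk2, Ifi35, Stat2, Ifit2, Sp100 and Ifih1. The split depends on the scaling. After median-ratio scaling 15 were called higher (background 23.4%) and 4 lower (background 21.2%), the latter being Irf9, Irf1, Cmpk2 and Ifi35, so that Stat2, Ifit2, Sp100 and Ifih1 lost the call, and the median was 0.42 against 0.01. The 10 genes that joined the higher group were Oas1a, Isg15, Zbp1, Dhx58, Ddx58, Parp9, Xaf1, Bst2, Igtp and Irf7. With the libraries numbered 2 left out, 3 genes were called higher (background 7.8%) and 8 lower (background 38.9%) as deposited, and 8 (background 17.7%) and 2 (background 14.6%) after scaling. With the replicate number as a block in the fit, 7 were called higher (background 10.2%) and 11 lower (background 50.9%) as deposited, with Oas1a and Isg15 joining the higher and Mx2, Samhd1 and Parp14 the lower group. The calls of Gbp3, Ifi44, Irf9 and Ifi35 held under every alternative tried, and the other 9 of the 13 were lost under at least 1. The WT and Act comparisons share no library, but their standard errors come from a single fit of all 11 libraries.

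**Figure D2:**
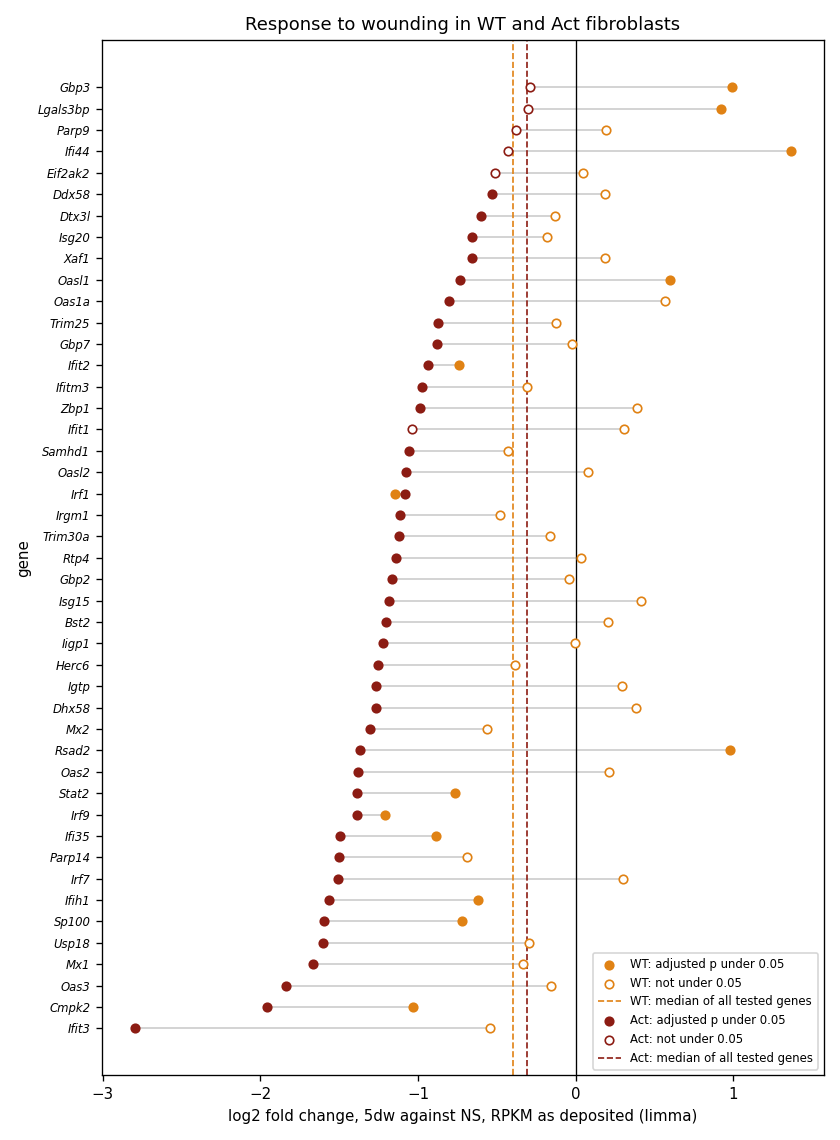
The log2FC between 5dw and NS (horizontal axis, values as deposited) for each of the 45 genes (rows, ordered by the Act value) in WT (orange) and Act (dark red). Filled points have an adjusted p under 0.05 and dashed lines mark the medians of all tested genes, -0.40 in WT and -0.31 in Act. All 45 Act points lie below 0, and the WT points lie on both sides.

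Of the 4 genes that carry the interferon signal, Irf9, Irf1 and Stat2 were called lower with wounding in both genotypes, and Irf7 in Act alone. Of all tested genes, 48.8% were called lower in WT and 36.5% in Act. After scaling all 4 were called lower in Act (background 20.4%). In WT, Irf9 and Irf1 were then called lower (background 21.2%) and Irf7 higher (background 23.4%). Irf9, the DNA-binding partner of STAT2, had an RPKM of 14.9, 16.8 and 12.6 in WT NS and 13.3, 18.3 and 14.4 in Act NS, with wound values of 5.15, 7.1 and 6.01 for WT and 6.27 and 4.83 for Act. All 5dw libraries lay below all NS libraries. The log2FC was -1.21 (standard error 0.17, adjusted p = 0.000219) in WT and -1.39 (standard error 0.19, adjusted p = 0.000297) in Act. Stat2, its partner, was likewise called lower in both, by a log2FC of -0.77 (standard error 0.18, adjusted p = 0.00425) in WT and -1.38 (standard error 0.20, adjusted p = 0.000406) in Act. The WT call of Stat2 was lost after scaling, at a log2FC of -0.30 and an adjusted p of 0.144.

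Irf1, a transcription factor that interferon gamma induces strongly, was the most abundant of this group, at 102, 107 and 71 in WT NS and 85.2, 113 and 82.7 in Act NS, with wound values of 35.7, 42.2 and 46.6 for WT and 47.1 and 40.1 for Act. The NS and 5dw libraries did not overlap, and the Act 5dw values lay inside or just above the WT 5dw range. Its log2FC was -1.14 (standard error 0.19, adjusted p = 0.000578) in WT and -1.08 (standard error 0.21, adjusted p = 0.00215) in Act, and Irf1 was the one gene of the 45 with a positive value between Act 5dw and WT 5dw (log2FC 0.07). Irf7, which amplifies interferon alpha production, took another course: it had 18.8, 18.3 and 19.4 in WT NS and 27.1, 34 and 23.2 in Act NS, with wound values of 14.7, 38.7 and 22.1 for WT and 10.6 and 8.48 for Act. In Act mice it was lower in both wound libraries than in any NS library (log2FC -1.50 (standard error 0.31, adjusted p = 0.00303)), whereas the WT 5dw libraries spread on both sides of WT NS (log2FC 0.30 (standard error 0.28, adjusted p = 0.374)).

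As deposited all 4 sensors were called lower in Act wounds, against 36.5% of all tested genes, and 1, Ifih1, in WT wounds, against 48.8%. After scaling 2 were called lower in Act (background 20.4%), Ifih1 and Dhx58, and 0 in WT. Zbp1, a sensor of Z-form nucleic acid that can start cell death, was the most abundant, at 11.2, 14.9 and 13 in WT NS and 15.3, 21 and 13.2 in Act NS, with wound values of 11.4, 24.5 and 18 for WT and 8.74 and 7.17 for Act. Both Act 5dw libraries were below the other 9, while the WT 5dw libraries overlapped WT NS and their highest value was the highest of all. The log2FC was -0.99 (standard error 0.28, adjusted p = 0.0158) in Act and 0.39 (standard error 0.25, adjusted p = 0.208) in WT. The Act call was lost after scaling, at -0.63 and an adjusted p of 0.102, and the WT value was then called higher, at 0.85 and an adjusted p of 0.0208. Without Act 5dw replicate 3 the adjusted p in Act was 0.113, and without Act NS replicate 2 it was 0.0545. Ifih1, which encodes the RNA sensor MDA5, had 3.43, 4.8 and 4.69 in WT NS and 4.73, 5.31 and 4.89 in Act NS, with wound values of 1.79, 3.2 and 3.03 for WT and 1.74 and 1.04 for Act. Its log2FC was -0.62 (standard error 0.21, adjusted p = 0.0242) in WT and -1.56 (standard error 0.23, adjusted p = 0.000443) in Act, and the WT call was lost without WT NS replicate 2 (adjusted p = 0.0718), WT NS replicate 3 (0.0766) or WT 5dw replicate 1 (0.101). Ddx58 (RIG-I) and Dhx58 (LGP2) had positive values in WT, 0.18 and 0.38, and were called lower in Act, at -0.53 and -1.27, the call of Ddx58 being lost after scaling (adjusted p = 0.356), without Act NS replicate 2 (0.0823) and without Act 5dw replicate 3 (0.219).

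The 3 IFIT genes, whose products bind viral RNA and lie near each other on chromosome 19, differed from each other. Ifit3 had the lowest log2FC of all 45 genes in Act mice, -2.80 (standard error 0.44, adjusted p = 0.00063). Its RPKM was 25.9, 50.3 and 38.6 in WT NS and 81.1, 91.5 and 38.5 in Act NS, with wound values of 14.8, 37.9 and 28.3 for WT and 10.6 and 7.74 for Act. Both Act 5dw libraries lay below every other library, and the 3 Act NS libraries were spread from 38.5 to 91.5. In WT the log2FC was -0.54 (standard error 0.39, adjusted p = 0.252), with overlap between NS and 5dw. Ifit3 shares 61.8% of its 31-base sequences with other genes, mostly Ifit3b, so its level is uncertain. Ifit2 was called lower in both genotypes, at -0.74 (standard error 0.18, adjusted p = 0.00568) in WT and -0.94 (standard error 0.21, adjusted p = 0.00393) in Act, of which the WT call was lost after scaling (adjusted p = 0.2) and the Act call without Act 5dw replicate 3 (adjusted p = 0.0522), while Ifit1 was called in neither, at 0.31 (standard error 0.41, adjusted p = 0.536) and -1.04 (standard error 0.46, adjusted p = 0.0859).

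**Figure D3:**
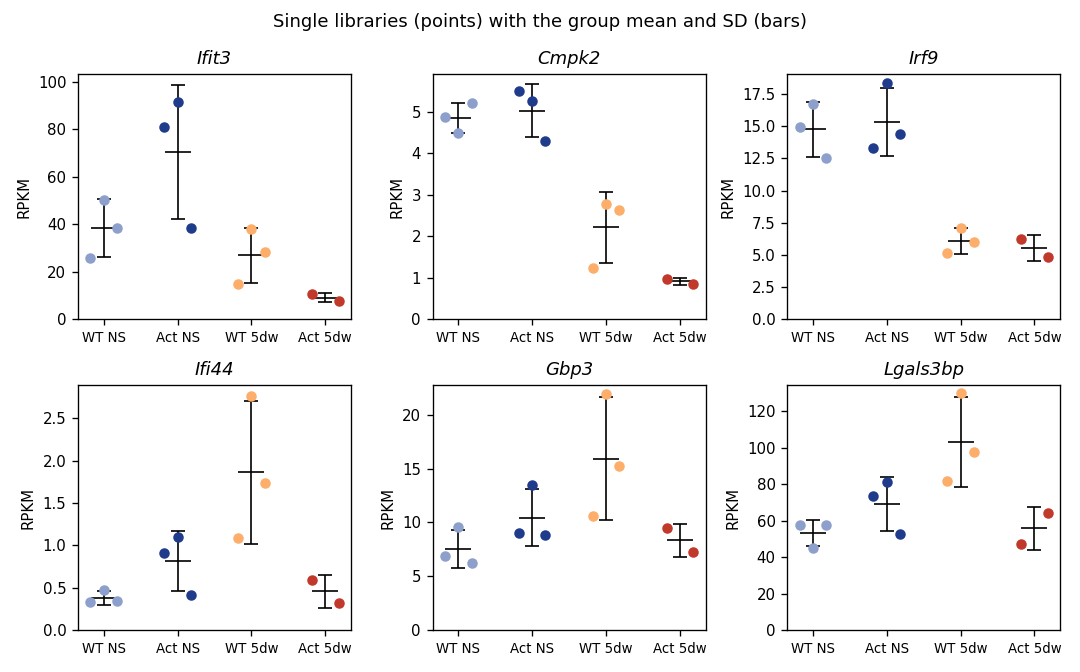
RPKM (vertical axes, each from 0) of 6 of the genes in the 4 groups. Points are single libraries, and bars are the group mean and SD. Ifit3 is lowest in Act 5dw, Cmpk2 and Irf9 lie below NS in 5dw of both genotypes, and Ifi44, Gbp3 and Lgals3bp are highest in WT 5dw.

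The role named double-stranded RNA-activated enzymes holds 6 genes, and whether each member has that activity was not tested. As deposited 5 of the 6 were called lower in Act wounds, against 36.5% of all tested genes. Oasl1 alone was called in WT, as higher, against 9.45%. After scaling 2 were called lower in Act (background 20.4%), Oas2 and Oas3, and Oas1a and Oasl1 were called higher in WT (background 23.4%). Oasl2, an oligoadenylate synthetase-like protein, was the most abundant, at 13.5, 13.9 and 15.6 in WT NS and 19.1, 21.1 and 13.1 in Act NS, with wound values of 10.4, 20 and 16.5 for WT and 9.1 and 7 for Act. Both Act 5dw values lay below all others, and WT 5dw overlapped WT NS. The log2FC was -1.08 (standard error 0.26, adjusted p = 0.00715) in Act and 0.08 (standard error 0.24, adjusted p = 0.787) in WT, and the adjusted p in Act was 0.0573 after scaling and 0.0731 without Act 5dw replicate 3. Its neighbour Oasl1, 11005 bases further along chromosome 5, had 1.25, 1.44 and 1.11 in WT NS and 1.63, 2.69 and 1.47 in Act NS, with wound values of 1.62, 2.95 and 2.08 for WT and 0.766 and 1.11 for Act. It had a log2FC of 0.60 (standard error 0.22, adjusted p = 0.0365) in WT, with all 3 wound libraries above WT NS, and -0.74 (standard error 0.25, adjusted p = 0.0305) in Act, with both wound libraries below Act NS. The WT call of Oasl1 was lost without WT NS replicate 1 (adjusted p = 0.0732) or 3 (0.105) and without WT 5dw replicate 2 (0.151) or 3 (0.0703). Its Act call was lost after scaling (0.148), in limma-voom (0.074), and without Act NS replicate 2 (0.0985), Act 5dw replicate 1 (0.192) or Act 5dw replicate 3 (0.0547). Oas2 and Oas3, which make the 2-5A signal that activates RNase L, were called lower in Act at -1.38 and -1.84 and had 0.21 and -0.15 in WT. Oas1a had 0.57 in WT (adjusted p = 0.0634, and 0.0136 with the replicate block) and -0.81 (standard error 0.27, adjusted p = 0.0313) in Act. The adjusted p in Act was 0.187 after scaling and 0.0995 without Act NS replicate 2. With only Act 5dw replicate 3 or replicate 1 left, where the call was lost, the log2FC was -0.87 and -0.75. Oas1a shares 68.8% of its 31-base sequences, mostly with Oas1g. Eif2ak2, the kinase PKR, was called in neither.

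As deposited all 5 genes of ISG15 conjugation and the TRIM family were called lower in Act wounds, against 36.5% of all tested genes. In WT wounds 0 were called, where 48.8% of all tested genes were called lower and 9.45% higher. After scaling 3 were called lower in Act (background 20.4%), and Trim25 and Trim30a were not, at an adjusted p of 0.0723 each. Without Act 5dw replicate 3 they had 0.0777 and 0.146, and without Act NS replicate 2 Trim30a had 0.0509. Isg15, a ubiquitin-like protein that is joined to other proteins, had 39, 69.2 and 51.3 in WT NS and 56, 86.1 and 73.2 in Act NS, with wound values of 48.4, 93 and 73 for WT and 31.1 and 30.7 for Act. The highest WT 5dw value was 93.0, and both Act 5dw values lay below every other library. The log2FC was -1.18 (standard error 0.29, adjusted p = 0.00773) in Act and 0.41 (standard error 0.26, adjusted p = 0.197) in WT, where scaling made it a call, at 0.89 and an adjusted p of 0.0162, as did the replicate block, at an adjusted p of 0.027. Usp18, which removes ISG15 and dampens signalling from the receptor, had 9.28, 9.53 and 10.2 in WT NS and 9.66, 11.3 and 8.94 in Act NS, with wound values of 5.56, 9.63 and 8.7 for WT and 3.65 and 2.34 for Act. Its log2FC in Act was -1.60 (standard error 0.22, adjusted p = 0.000319), and between the genotypes in 5dw it had the smallest adjusted p of the 45, 0.176.

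Mx1 and Mx2, GTPases that block virus replication, were both called lower in Act wounds as deposited, against 36.5% of all tested genes. Neither was called in WT wounds, where 48.8% of all tested genes were called lower. Mx2 had 5.33, 7.34 and 5.74 in WT NS and 5.24, 9.26 and 5.02 in Act NS, with wound values of 2.14, 6.56 and 4.28 for WT and 2.59 and 1.93 for Act. The Act 5dw values lay below all NS values, WT 5dw replicate 1 lay between the 2 Act 5dw libraries, and of the other WT 5dw libraries 1 overlapped NS. The log2FC was -1.30 (standard error 0.36, adjusted p = 0.0136) in Act and -0.56 (standard error 0.33, adjusted p = 0.16) in WT, where the replicate block gave an adjusted p of 0.0422. The Act call of Mx2 was lost after scaling (adjusted p = 0.0543) and without Act 5dw replicate 3, where the log2FC was -1.13. Mx1 stood at 0.240 to 2.34 RPKM and had -1.67 in Act.

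Among the guanylate-binding and immunity-related GTPases, 5 of 6 were called lower in Act wounds as deposited, against 36.5% of all tested genes. After scaling 1 of them, Igtp, was called (background 20.4%). Gbp2 was the most abundant, at 84.5, 158 and 76.9 in WT NS and 127, 199 and 125 in Act NS, with wound values of 58.5, 123 and 131 for WT and 77.8 and 54.5 for Act. The groups were wide, and both Act 5dw libraries fell below the 3 Act NS libraries. Its log2FC was -1.16 (standard error 0.40, adjusted p = 0.0334) in Act and -0.04 (standard error 0.35, adjusted p = 0.929) in WT, and the Act call was lost after scaling (adjusted p = 0.142), without Act NS replicate 2 (0.102) and without Act 5dw replicate 1 (0.0583) or 3 (0.207). Gbp3 lies between Gbp7 and Gbp2 on chromosome 3 and had 6.85, 9.59 and 6.2 in WT NS and 9, 13.5 and 8.84 in Act NS, with wound values of 10.6, 21.9 and 15.2 for WT and 9.44 and 7.24 for Act. It was called higher in WT, 0.99 (standard error 0.26, adjusted p = 0.00792), with all 3 WT wound libraries above the WT NS libraries, and its Act value of -0.29 (standard error 0.29, adjusted p = 0.434) came from groups that overlapped. Igtp was raised in a single library, WT 5dw replicate 3 at 6.34, against 2.49 and 2.81 in the other 2 WT 5dw libraries and 0.915 and 1.04 in Act 5dw. Irgm1 and Iigp1 were called lower in Act, at -1.12 and -1.22, and their WT values were -0.48 and 0.00. After scaling the adjusted p in Act was 0.12 for Irgm1 and 0.125 for Iigp1, without Act 5dw replicate 3 it was 0.174 and 0.173, without Act NS replicate 2 it was 0.0799 and 0.0991, and without Act 5dw replicate 1 that of Iigp1 was 0.071.

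As deposited all 7 antiviral effectors were called lower in Act wounds, against 36.5% of all tested genes. After scaling 5 were (background 20.4%), without Rsad2 and Isg20. Ifitm3, which blocks the entry of viruses at membranes, had 527, 593 and 579 in WT NS and 540.2, 669 and 538 in Act NS, with wound values of 393, 554 and 434 for WT and 276 and 315 for Act. It had a log2FC of -0.97 (standard error 0.18, adjusted p = 0.00157) in Act, with both Act 5dw libraries below the other 9, and -0.31 (standard error 0.16, adjusted p = 0.115) in WT. Cmpk2, a nucleotide kinase of mitochondria, had the smallest adjusted p of the list in Act. Its RPKM was 4.87, 4.49 and 5.22 in WT NS and 5.5, 5.27 and 4.3 in Act NS, with wound values of 1.24, 2.78 and 2.64 for WT and 0.975 and 0.854 for Act, so every wound library lay below every NS library. The log2FC was -1.96 (standard error 0.24, adjusted p = 0.000131) in Act and -1.03 (standard error 0.21, adjusted p = 0.00202) in WT, and the WT call was lost after quantile normalization (adjusted p = 0.0696), after scaling with the libraries numbered 2 left out (0.0706) and after scaling with the replicate block (0.0589).

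Cmpk2 and Rsad2 are neighbours on opposite strands of chromosome 12, with starts 12752 bases apart, and in WT wounds they were called in opposite directions. Rsad2, the antiviral enzyme viperin, had 2.73, 6.76 and 3.71 in WT NS and 8.61, 7.34 and 6.39 in Act NS, with wound values of 4.67, 12.1 and 11 for WT and 2.91 and 2.23 for Act. In WT 5dw 2 of the 3 libraries lay above all NS libraries. The log2FC was 0.98 (standard error 0.35, adjusted p = 0.032) in WT and -1.37 (standard error 0.39, adjusted p = 0.0148) in Act. In Act, Rsad2 and Cmpk2 were both called lower. After scaling the Act call of Rsad2 was lost (adjusted p = 0.0651), as it was without Act 5dw replicate 3, where the log2FC was -1.21. Its WT call was lost without WT NS replicate 1 (0.117) or 3 (0.0893) and without WT 5dw replicate 2 (0.121) or 3 (0.107). Of the remaining effectors, Bst2 (tetherin) and Samhd1, a nucleotide hydrolase, were called lower in Act alone, at -1.20 and -1.06, and Sp100, a nuclear body protein, in both genotypes. In WT the adjusted p of Samhd1 was 0.0624, and 0.0309 with the replicate block. The WT call of Sp100 was lost after scaling (adjusted p = 0.431), without WT NS replicate 2 (0.0815) or 3 (0.0881), and without WT 5dw replicate 1 (0.137) or 3 (0.0691).

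Of the 3 ADP-ribosylation genes on chromosome 16, Parp14 and Dtx3l were called lower in Act as deposited, against 36.5% of all tested genes. In WT 0 were called, where 48.8% of all tested genes were called lower. The call of Dtx3l was lost after scaling (adjusted p = 0.227). Without Act 5dw replicate 3 the calls of Dtx3l and Parp14 were both lost, at a log2FC of -0.41 and -1.22. Parp14, a mono-ADP-ribosyltransferase, had 9.32, 16.8 and 11 in WT NS and 12.8, 20.7 and 15 in Act NS, with wound values of 4.5, 10.3 and 8.16 for WT and 6.54 and 4.27 for Act. It had a log2FC of -1.50 (standard error 0.34, adjusted p = 0.00502) in Act, with both Act 5dw libraries below Act NS, and -0.69 (standard error 0.31, adjusted p = 0.0749) in WT, where the highest wound library overlapped NS and the replicate block gave an adjusted p of 0.0153. Dtx3l and Parp9 overlap by 682 bases on opposite strands, and whether the counting used strand is not given in the sources read, so reads in the overlap cannot be told apart.

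Of the remaining 5 genes, Ifi44 had the highest WT log2FC of the 45. Its RPKM was 0.33, 0.472 and 0.34 in WT NS and 0.914, 1.1 and 0.419 in Act NS, with wound values of 1.09, 2.76 and 1.73 for WT and 0.596 and 0.318 for Act. All 3 WT wound libraries lay above the WT NS libraries, for a log2FC of 1.36 (standard error 0.28, adjusted p = 0.00184), and the Act groups overlapped (log2FC -0.43 (standard error 0.31, adjusted p = 0.275)). Since it is expressed at about 1 RPKM, the added 0.5 lowers its log2FC. Lgals3bp, a secreted glycoprotein, had 57.8, 45.3 and 57.5 in WT NS and 73.8, 81.3 and 52.6 in Act NS, with wound values of 81.7, 130 and 97.8 for WT and 47.5 and 64.1 for Act. It was higher in all 3 WT wound libraries than in any NS library, at 0.92 (standard error 0.22, adjusted p = 0.00426), with an adjusted p of 0.0534 when the libraries numbered 2 were left out, with -0.30 (standard error 0.24, adjusted p = 0.329) in Act. Ifi35, by contrast, had 14.1, 12.9 and 17.7 in WT NS and 13.5, 15.9 and 17.2 in Act NS, with wound values of 6.3, 9.63 and 7.75 for WT and 5.47 and 4.86 for Act. All 5dw libraries lay below all NS libraries, at -0.88 (standard error 0.17, adjusted p = 0.00143) in WT and -1.50 (standard error 0.19, adjusted p = 0.000184) in Act. Rtp4 and Xaf1 were called lower in Act only, at -1.14 and -0.66, and both calls were lost after scaling (adjusted p = 0.0948 and 0.287) and when Act 5dw replicate 3 was left out (0.179 and 0.307). Without Act NS replicate 2 the adjusted p was 0.0625 and 0.113, and that of Xaf1 was also above 0.05 without Act NS replicate 1 (0.0535) or 3 (0.0506) and without WT 5dw replicate 3 (0.0538).

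Between the genotypes in wounds, almost every gene was lower in Act. Of the 45, 44 had a log2FC below 0 between Act 5dw and WT 5dw, with a median of -0.76 against -0.04 for all tested genes. For 29 genes both Act 5dw libraries lay below all 3 WT 5dw libraries, which held for 15.2% of all tested genes. None was called by limma: 0 of 45 passed, 31 had an unadjusted p under 0.05, which 3.22% of all tested genes had in either direction, 0 were called by limma-voom, and 4 of all 11979 tested genes (0.0334%) passed in either direction. The median was -0.75 after scaling and -0.54 with the libraries numbered 2 left out, when 20 genes had an unadjusted p under 0.05 (background 2.52%). Without WT 5dw replicate 1, the lowest library of its group, it was -1.06, and without Act 5dw replicate 3 it was -0.53 with 17 such genes (background 5.15%).

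The lowest values were those of Rsad2, -1.58 (95% interval -2.43 to -0.72), Igtp, -1.46 (95% interval -2.10 to -0.83), and Ifit3, -1.42 (95% interval -2.39 to -0.46). Usp18 had -1.27 (95% interval -1.76 to -0.78) and Isg15 -1.15 (95% interval -1.80 to -0.50). These intervals are unadjusted. The relay factors were spread, with Irf7 at -1.25 (95% interval -1.94 to -0.56), Stat2 at -0.56 (95% interval -1.01 to -0.12), Irf9 at -0.12 (95% interval -0.54 to 0.30) and Irf1 at 0.07 (95% interval -0.39 to 0.54). By role, the median log2FC ran from -0.34 for the signal relay and transcription factors and -0.39 for ADP-ribosylation to -0.94 for the double-stranded RNA-activated enzymes and -0.98 for the MX GTPases.

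**Figure D4:**
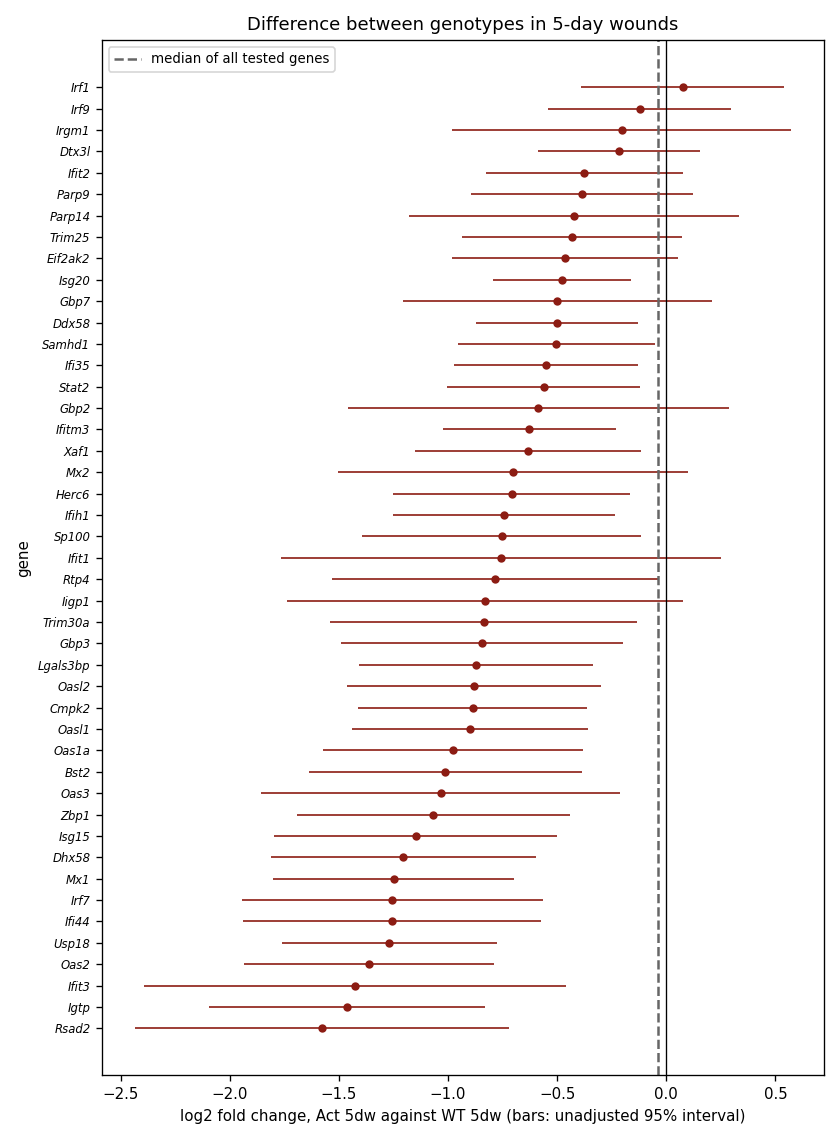
Genotype log2FC in wounds, Act 5dw against WT 5dw (horizontal axis, values as deposited) for each of the 45 genes, with the unadjusted 95% interval as a bar. 44 of the 45 points lie below 0, and the dashed line marks the median of all tested genes, -0.04.

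In unwounded skin no member was called. Between Act NS and WT NS limma called 0 of the 45 genes, 1 of which had an unadjusted p under 0.05 (background 6.88% in either direction), and limma-voom called 0, where 0.0167% of all tested genes were called. The number with an unadjusted p under 0.05 was 9 after median-ratio scaling (background 4.78%), 9 after quantile normalization (5.68%), 12 with the replicate block (8.92%) and 20 with scaling and the block (6.78%), all of them higher in Act, and each of these fits also called 0. The median log2FC was 0.25 against -0.11 for all tested genes, and 43 of 45 values were above 0. For 7 genes all 3 Act NS libraries lay above all 3 WT NS libraries (background 0.993%): Ddx58, Dhx58, Irf7, Oas1a, Oasl1, Dtx3l and Bst2. The highest log2FC was that of Ifit3, 0.83 (95% interval -0.04 to 1.69). Without Act NS replicate 2, the highest library of its group for 41 genes, the median was 0.14 and 31 values were above 0.

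The interaction, the wounding log2FC in Act minus that in WT, had a median of -0.96 over the 45 genes against 0.08 for all tested genes, and it was below 0 for 44 of them. It was called for 0 of 45 genes by limma, 33 of which had an unadjusted p under 0.05 (background 3.34%), for 0 by limma-voom, and for 0% of all tested genes. The smallest adjusted p was 0.549. No single gene therefore passed the test of a different wounding response in the 2 genotypes.

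**Figure D5:**
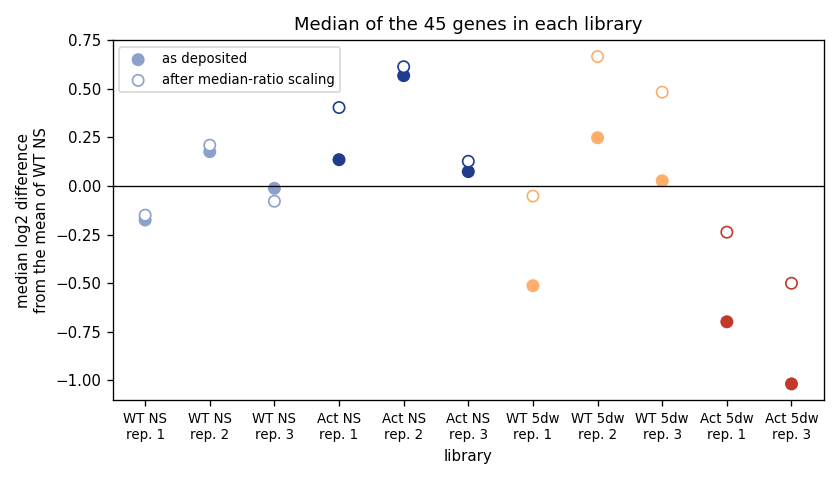
Median over the 45 genes of the log2 difference from the mean of the WT NS libraries (vertical axis) in each of the 11 libraries, as deposited (filled) and after median-ratio scaling (open). As deposited the Act 5dw libraries stand at -0.70 and -1.02 and the WT 5dw libraries at -0.51, 0.25 and 0.03.

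The upstream part of the pathway was measured in the same libraries. Of 21 interferon genes, 20 stayed under 1 RPKM in every library, and 6 of them, Ifna9, Ifna12, Ifna14, Ifna15, Ifna16 and Ifnl3, were listed at 0 throughout. Ifng reached at most 0.107. Ifnb1, the interferon beta gene, was the only one tested. It had 1, 12.4 and 1.79 in WT NS and 3.34, 8.41 and 11.9 in Act NS, with wound values of 0.605, 1.31 and 0.688 for WT and 0.26 and 0.364 for Act. It was lower in Act wounds than in Act NS, at -3.21 (standard error 0.75, adjusted p = 0.00567), and the WT value was -1.41 (standard error 0.67, adjusted p = 0.092), which the replicate block called lower (adjusted p = 0.0248). Ifnb1 was highest in replicate 2 of WT NS and of WT 5dw, the libraries that were highest of their groups for 33 and 40 of the 45 genes, and in replicate 3 of Act NS and of Act 5dw, which were lowest of theirs for 29 and 39. Ifnk, an interferon of keratinocytes, was at 0.0985 to 0.919 in NS and listed at 0 in all 5 wound libraries.

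The type I receptor was expressed at similar levels in all groups. Ifnar1 had 10.1, 10.4 and 11.5 in WT NS and 8.42, 10.3 and 9.92 in Act NS, with wound values of 10.7, 9.22 and 8.6 for WT and 11.2 and 11 for Act, and Ifnar2 lay between 14.6 and 19.1. Neither was called in any comparison as deposited. After scaling both were called higher in wounds of both genotypes. Ifngr1, the ligand-binding chain of the interferon gamma receptor, did fall. It had 30.6, 26.7 and 34.5 in WT NS and 29.8, 33.3 and 28.3 in Act NS, with wound values of 8.71, 10.4 and 10.2 for WT and 8.83 and 6.91 for Act, with no overlap between NS and 5dw, and a log2FC of -1.59 (standard error 0.14, adjusted p = 1.22e-05) in WT and -1.89 (standard error 0.16, adjusted p = 1.43e-05) in Act. Ifngr2 and Il10rb were not called as deposited, and Ifnlr1 was under 1 throughout.

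Of the kinases and STATs, Jak1 had 58.2, 84.4 and 72.5 in WT NS and 50.9, 77.6 and 78.9 in Act NS, with wound values of 57.7, 64.7 and 58.1 for WT and 68.6 and 56.5 for Act and was called in no comparison. Tyk2 and Stat3 were called lower with wounding in both genotypes as deposited and in neither after scaling. Of the further interferon regulatory factors, Irf2, Irf3 and Irf5 were called lower in both, and after scaling Irf3 was lost in Act alone.

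Of 9 sensors, adaptors and kinases upstream of interferon that were tested, 6 were called lower in WT wounds (Mb21d1, Mavs, Tlr3, Ticam1, Myd88 and Tbk1) and 5 in Act wounds (the same without Tbk1), where the shares of all tested genes called lower were 48.8% and 36.5%. Myd88, an adaptor of Toll-like receptors, was the most abundant, with 64.2, 82.4 and 58 in WT NS and 59.7, 98.9 and 72.7 in Act NS, with wound values of 29.8, 44.1 and 37.1 for WT and 38.9 and 34.2 for Act. After scaling, Mb21d1 was called lower in WT, Tlr3 and Myd88 in Act, and Tmem173 and Traf3 were called higher in WT. Tlr7 and Tlr9 stayed under 1. Of 8 negative regulators, 5 were called lower in WT (Ptpn6, Ptpn11, Pias1, Pias4 and Irf2bp1) and 4 in Act (the same without Ptpn6), against the same 48.8% and 36.5% of all tested genes, while Socs1 and Socs3, which are induced by cytokine signals, were not called. After scaling, Pias1 was called lower in both and Irf2bp1 in Act. No gene of these lists was called between the genotypes or in the interaction, as deposited.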

How the data were processed

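Poly-A RNA of sorted fibroblasts was sequenced in 11 libraries. The authors aligned single-end reads to GRCm38 in CLC Genomics Workbench and deposited RPKM per gene symbol, and they tested expression with edgeR, which takes counts and was not run here. The deposited RPKM values were transformed to log2(RPKM + 0.5), and the 11979 genes that reached an RPKM of 1 in 2 or more libraries were fitted with limma-trend 3.58.1 (R 4.3.3), with 1 mean for each of 4 groups and 7 residual degrees of freedom. Adjusted p-values are Benjamini-Hochberg over all genes tested in a comparison, with a threshold of 0.05.

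The members, their roles and the pathway and marker lists were chosen with earlier results of these data known. Given with the value in every library were the up to 3 called members with the smallest p in each comparison and direction and the most abundant member of each role. Other members were added after their values were seen: Irf7, Ifih1, Usp18, Oasl1 and Rsad2. Mapped totals were recovered from the whole-read steps in the RPKM values and were used for limma-voom. Whole reads within 0.03 reads were reached for 11534 of the tested genes, 7337 of them by their annotated length. The others did not rest on the annotated length, so they are no independent check of the totals. Positions and 31-base sequences came from GENCODE M21, promoters from RefSeq. Over all tested genes, libraries with the same replicate number deviated together from their group means in WT NS and Act NS (r of 0.33 to 0.55 for the 3 numbers) and in WT NS and WT 5dw (0.11 to 0.19), and were taken as pairs from the data, since the labels give only the number. Between Act 5dw and Act NS r was 0.019 and 0.14, and between Act 5dw and WT 5dw -0.078 and 0.19, and these were not taken as pairs. Between Act NS and WT 5dw r was 0.20 to 0.26 for the same number. An r above 0.1 was found for 12 of 15 same-number pairs and for 5 of 30 pairs of unlike number, the highest of the latter at 0.31. An r of 0.11 to 0.19 alone therefore does not set a pair apart. The main fit has no block. Alternatives were other pseudocounts, filters and scalings, a replicate block, fits of only the groups compared, and fits without single libraries. The limma fit was tested on simulated data. No 2 libraries held identical values, and 0 columns were unmapped. Some genes of the pathway lists are not reported here.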

Additional observations from a re-analysis of the deposited data

Results flagged for a closer look

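For 6 genes, every WT 5dw library lay above the WT NS mean and every Act 5dw library below the Act NS mean. The difference between the wounding responses, Act minus WT, was -2.35 for Rsad2, -1.80 for Ifi44, -1.37 for Oas1a, -1.33 for Oasl1, -1.29 for Gbp3 and -1.23 for Lgals3bp on the log2 scale. The limma adjusted p of this interaction was 0.549 for Rsad2, 0.574 for Ifi44, 0.646 for Oasl1, 0.789 for Oas1a and for Lgals3bp, and 0.923 for Gbp3, so none passed the threshold. Outliers within groups were not tested, since groups held 2 or 3 libraries.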

How the results depend on the processing

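Of 1595 alternative values for single genes, 1417 kept their direction and their side of the threshold, 173 lost the call and 5 changed sign, all between Act 5dw and WT 5dw: Irf9 (0.049 without Act 5dw replicate 3, 0.0078 after scaling with the libraries numbered 2 left out, 0.0038 after scaling with a replicate block, and -0.29 to 0.049 without single libraries) and Irf1 (-0.03 without WT 5dw replicate 1, -0.040 without Act 5dw replicate 1, and -0.040 to 0.19 without single libraries). These are alternatives of 67 values, among them the 13 calls in WT and the 39 in Act, and calls gained under an alternative do not enter. The values between Act 5dw and WT 5dw were called in no setting, so they could not lose a call. Of the 13 calls in WT 4 held throughout, and 4 were lost without a single library. Of the 39 in Act 17 held, and 18 were lost without Act 5dw replicate 3. For Act 5dw against Act NS, 39 genes were called, but 22 after median-ratio scaling, 23 after quantile normalization, and 21 to 40 without single libraries, the lowest without Act 5dw replicate 3. Chosen after seeing the data, scaling gave 18 with the libraries numbered 2 left out and 23 with a replicate block. For WT 5dw against WT NS, 5 genes were higher and 8 lower. The higher count was 3 without a filter, 3 with a filter of 5 RPKM, 3 without both NS libraries numbered 1, 3 without the libraries numbered 2, 15 after median-ratio scaling, 11 after quantile normalization and 3 to 8 without single libraries. It was 8 after scaling without the libraries numbered 2 and 17 after scaling with a replicate block, where 20 genes were called in all. The lower count was 4 after either scaling, 2 after scaling without the libraries numbered 2, 3 after scaling with a block, and 6 to 12 without single libraries. The genotype comparisons and the interaction gave 0 calls in every setting tried.

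With the replicate number as a block, 7 genes were higher and 11 lower in WT and 40 lower in Act, where Ifit1 was added. Beyond the calls given in the report, the block changed no other call of the 45 genes. All genes together shifted by -0.40 in WT and -0.31 in Act in the unscaled wounding comparisons, and Act 5dw held 2 pools, which limits every count that rests on it. Whether depth limits the counts was not tested.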
